A study of Mus musculus with 2 samples.

Results

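The 93 genes described here encode the nuclear part of the mitochondrial respiratory chain and ATP synthase, with the assembly factors that carry the same family names. They were every symbol of the deposited table that begins with Nduf, Uqc, Cox4 to Cox8 or Atp5, together with Sdha, Sdhb, Sdhc and Sdhd, which makes 93 of 10778 symbols. Brown adipose tissue came from male C57BL6/J mice of 8 to 12 weeks. Every mouse was on a diet with 60% of its calories as fat for 10 days, either without SML (HFD control, called the control below) or with SML given into the peritoneal cavity at 5 mg per kg of body weight. The title of the series speaks of sesaminol, a lignan of sesame, but the labels use only SML, and they do not say whether the control mice were injected with a vehicle. Each group was 1 library of poly(A) RNA, and the sources used here do not say how many animals a library holds. Since each group is a single library, no test and no replicate check was possible, and each difference below compares 2 libraries, not 2 conditions.

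The respiratory chain passes electrons from NADH and succinate to oxygen. Complex I (NADH dehydrogenase) and complex II (succinate dehydrogenase) feed complex III (the cytochrome bc1 complex), cytochrome c carries the electrons on to complex IV (cytochrome c oxidase), and complexes I, III and IV pump protons that complex V (ATP synthase) uses to make ATP. In brown fat the uncoupling protein UCP1 lets these protons back into the matrix and the energy is released as heat, so the tissue is rich in respiratory chain and holds comparatively little ATP synthase. Several small subunits of complex IV come as pairs of genes, a widely expressed one and a heart and muscle or otherwise tissue-restricted one, and brown fat is known to use some of the muscle forms. The mitochondrially encoded subunits were not analysed here.

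Levels are given as FPKM (fragments per kilobase, adjusted for the depth of the library), and comparisons between genes depend on the length used. In the control, FPKM was divided by counts per kilobase of the annotated principal transcript. With the median of single-transcript genes longer than 2000 bases set to 1, this ran from 0.20 in Ndufa11 to 14.6 in Ndufb2. Genes called the most abundant below are so by FPKM, and the order can differ per annotated kilobase. A difference is log2(FPKM + 1) in the SML library minus that in the control library. A gene is called higher or lower when the difference reaches 1.5-fold. Ratios are SML over HFD control in the deposited count columns, with a 95% exact conditional interval. The interval covers counting error only, and leaves out variation among animals and PCR duplicates. The table held 12003400 fragments for the control and 8503330 for SML, recovered from the step between low values of the count columns. The median difference over the 9887 genes whose mean FPKM reached 1 was 0. All 10 markers of brown adipocytes, the labelled tissue's defining cells, were in the table, and Ucp1 stood at 8702 FPKM in the control and 7955 in SML.

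The respiratory chain genes were among the most abundant transcripts of the tissue. They held 26.0% of the summed FPKM in the control library and 25.02% in the SML library, and 15 of the 20 genes with the highest mean FPKM were among them. In the count columns, which are not divided by length, their shares were lower, 11.7% in the control and 10.9% in SML. Their summed level was 217533 FPKM in the control and 197224 with SML, a ratio of 0.907. All 93 passed the filter on low values, and 78 rested on at least 1000 fragments in each library. Cox8b was the most abundant at 22044 and 14824 FPKM, followed by Cox6a1 at 12673 and 10185 and Cox7a1 at 9041 and 10056. In counts per annotated kilobase Cox8b and Cox6a1 also led. There Cox4i1 stood above Cox7a1 in the control (44492 and 36282) and below it in SML (38352 and 39563). The order of levels was nearly the same in both libraries (Spearman rho 0.987 across the 93 genes, which are not independent replicates).

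By the 1.5-fold rule 4 of the 93 genes differed, against 11.2% of all genes kept. The higher ones were Ndufaf4 and Atp5s, beside 5.44% of all genes called higher. The lower ones were Cox6a2 and Atp5g1, beside 5.76% of all genes called lower. The remaining 89 differed by less than 1.5-fold in either direction. Of the 93, 64 had a difference below 0, against 49.8% of all genes kept, and their median was -0.10. The interval of the count ratio lay below 1 for 55, above 1 for 25, and included 1 for 13, against 51.3% of all genes. At the depth of these genes even a small ratio falls outside counting error, which says nothing about the spread between animals. Among the 293 genes with a mean of at least 500 FPKM, the 72 respiratory chain genes had a median difference of -0.14 with 73.6% below 0, and the 221 others had a median of -0.03 with 55.7% below 0. With the trend on GC content and length removed the median of the 93 genes was -0.05, and with totals set equal outside the 50 highest genes it was also -0.05, where that scaling moved the median of all genes to 0.05.

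**Figure D1:**
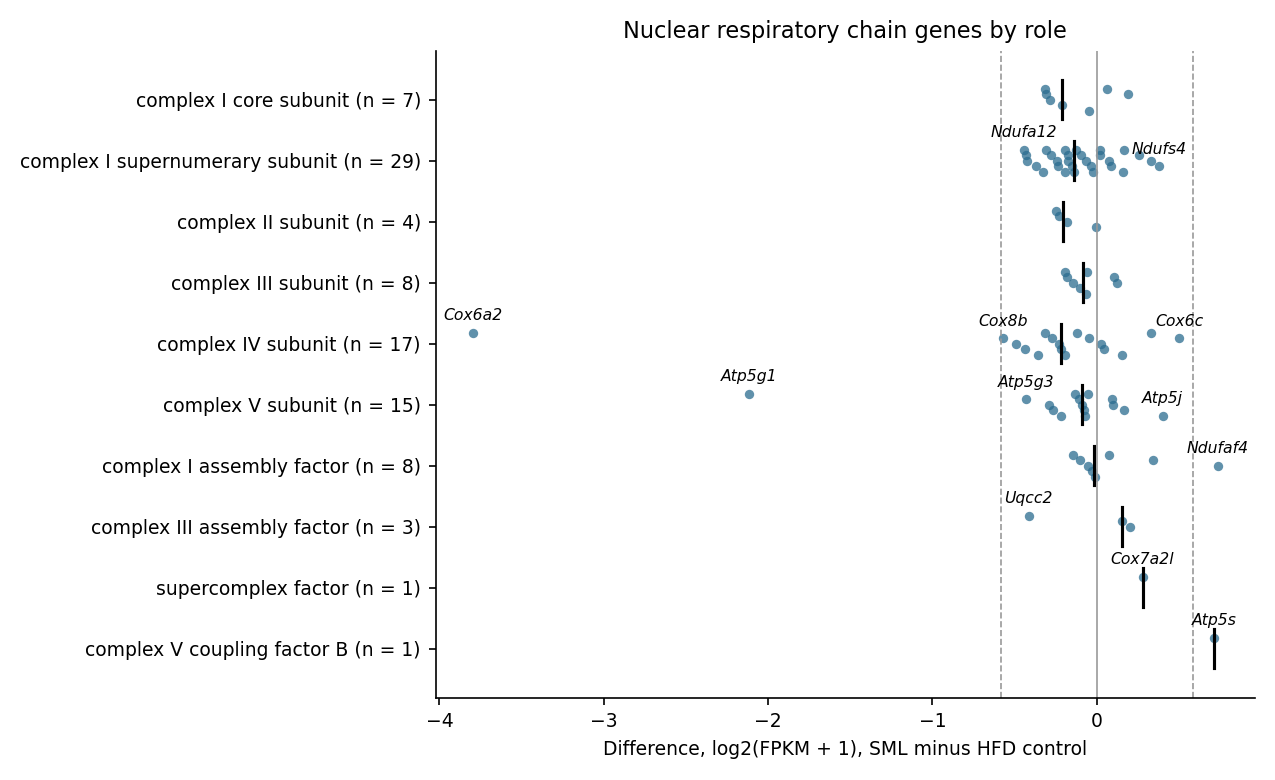
Difference between the SML and control libraries for each of the 93 genes, log2(FPKM + 1), grouped by role; each point is 1 gene with 1 library per group, black bars are medians, and dashed lines mark 1.5-fold. Most subunits lie within the dashed lines and below 0, while Cox6a2 at -3.80 and Atp5g1 at -2.12 stand far to the left.

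The upstream sequences of 2 isoform pairs of complex IV, 7A and 8, are shown first because the broad and tissue-restricted genes of a pair differ in them. That of Cox6a1 is shown for its matches to the motifs below, without its partner. The set of RefSeq windows used here (build GRCm38.p6) covered 78 of the 93 genes. Values below are per gene: over the starts of a gene, CG counts were averaged and a motif match at any start counted. The 250 bases before the start are printed 5′ to 3′ on the strand of the gene, with each CG dinucleotide in capitals. The windows are chr7:30183921-30184170 on the plus strand for Cox7a1, chr9:79759854-79760103 on the minus strand for Cox7a2, chr7:140900447-140900696 on the minus strand for Cox8b, chr19:7217617-7217866 on the minus strand for Cox8a, and chr5:115348959-115349208 on the minus strand for Cox6a1. The window of Cox6a2 was not among those used.
Cox7a1: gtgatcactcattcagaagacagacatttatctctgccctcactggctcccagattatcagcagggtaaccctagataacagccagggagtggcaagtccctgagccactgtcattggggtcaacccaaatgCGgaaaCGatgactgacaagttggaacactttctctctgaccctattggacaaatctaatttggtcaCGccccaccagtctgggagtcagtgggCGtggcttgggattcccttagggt
Cox7a2: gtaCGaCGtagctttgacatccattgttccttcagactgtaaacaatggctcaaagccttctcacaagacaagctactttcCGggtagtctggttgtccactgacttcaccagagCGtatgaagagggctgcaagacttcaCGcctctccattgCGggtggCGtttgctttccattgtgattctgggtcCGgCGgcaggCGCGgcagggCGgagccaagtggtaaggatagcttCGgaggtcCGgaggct
Cox8b: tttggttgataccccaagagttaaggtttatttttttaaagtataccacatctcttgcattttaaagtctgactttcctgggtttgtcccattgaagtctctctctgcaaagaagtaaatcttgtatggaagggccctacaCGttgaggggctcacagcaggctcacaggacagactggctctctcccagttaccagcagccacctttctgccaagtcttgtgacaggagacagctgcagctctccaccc
Cox8a: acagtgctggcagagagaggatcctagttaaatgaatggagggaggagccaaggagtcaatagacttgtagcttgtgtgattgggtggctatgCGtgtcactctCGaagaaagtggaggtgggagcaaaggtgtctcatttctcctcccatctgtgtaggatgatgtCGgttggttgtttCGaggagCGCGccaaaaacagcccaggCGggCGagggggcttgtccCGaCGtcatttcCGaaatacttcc
Cox6a1: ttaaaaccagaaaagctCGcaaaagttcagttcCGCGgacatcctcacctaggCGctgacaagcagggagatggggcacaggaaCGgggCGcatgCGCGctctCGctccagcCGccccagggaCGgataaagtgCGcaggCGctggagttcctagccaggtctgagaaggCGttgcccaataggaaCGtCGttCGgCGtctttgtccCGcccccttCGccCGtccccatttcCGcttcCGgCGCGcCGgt

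The window of Cox8b held 1 CG dinucleotide and that of Cox7a1 held 4, the lowest counts among the 78 genes together with Ndufc2, which also held 4. Their broad partners held 11 in Cox8a and 14 in Cox7a2, and Cox6a1 held 26. Only 6 of the 78 genes (7.69%) held 5 or fewer, namely Cox8b, Cox7a1, Ndufc2, Cox7b, Uqcr10 and Uqcc1. The share with 5 or fewer was 48.6% over all 27018 genes with a window and 10.5% over the 7593 of them kept here. These counts describe sequence and were not related to the differences by any test.

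Motifs were searched on both strands of the same windows, with letters chosen from textbook consensus sequences after the expression values were known. The NRF1 motif GCGCANGCG, named for nuclear respiratory factor 1, was in 16 of the 78 genes (20.5%). Its share was 5.86% of all genes with a window and 13.7% of those kept. The ETS motif CCGGAAG, the core bound by factors such as GABP, was in 13 (16.7%), against 7.83% and 16.8%. The estrogen-related receptor motif TCAAGGTCA was in 1 gene (1.28%, against 0.422% and 0.303%). The MEF2 motif TAAAAATAG, known from muscle genes, was in 0 genes (against 0.526% and 0.369%). The Cox6a1 window held NRF1 matches 162, 161 and 117 bases before the start, the first pair overlapping on opposite strands, and an ETS match 16 bases before it. None of the 4 motifs was found in the windows of Cox7a1, Cox7a2, Cox8a or Cox8b, which says only that these letters are not there.

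Cox6a2, the heart and muscle form of subunit 6A of complex IV, was the most different of the 93 genes. Its level was 123.79 FPKM in the control and 7.98 in SML, a count ratio of 0.064 (0.0447 to 0.089), or 15.6-fold lower (11.2 to 22.4), from 786 and 37 fragments. Its broad partner Cox6a1 stood at 12673 and 10185 FPKM, a ratio of 0.795 (0.785 to 0.806). Cox6a2 was therefore a small share of the pair in both libraries, 0.967% of the FPKM in the control and 0.078% in SML. The gene lies at chr7:128205435-128206387 on the minus strand (mm10, GENCODE M21), inside Itgad on the opposite strand. The deposited Cox6a2 locus spans 32421 bases, against 953 for the annotated gene, and Itgad is not a symbol of the table as used here. Strand-specific counting is not stated for these libraries, so reads of such overlapping genes cannot be told apart.

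Skeletal muscle transcripts moved with Cox6a2. Of 24 muscle markers 23 were in the table, all 23 were lower in the SML library, and none was at 0 in either. Their summed level was 5025 FPKM in the control and 343 in SML, which is 14.7-fold lower, and the fold of single markers ran from 9.68 to 31.2. Cox6a2 corresponded to 2.46% of the muscle sum in the control and 2.33% in SML. None of the 6 cardiac markers was in the table. In bulk tissue, fewer cells of a type and less RNA per cell cannot be told apart, and the part of muscle in the Cox6a2 difference was not tested.

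Atp5g1 was lower too but by less than the muscle markers. It encodes an isoform of the c subunit, the ring that turns as protons cross ATP synthase, and 3 genes make the same mature protein. Low expression of Atp5g1 is known to limit the amount of ATP synthase in brown fat. Atp5g1 stood at 84.72 FPKM in the control and 18.77 with SML, a ratio of 0.22 (0.178 to 0.268), or 4.55-fold lower (3.73 to 5.60). It corresponded to 1.69% of the muscle sum in the control and 5.48% in SML, so it did not keep the proportion that Cox6a2 kept. Both of its deposited transcripts were lower, 1 from 54.4 to 7.86 FPKM (6.96-fold) and the other from 30.3 to 10.9 (2.79-fold).

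The other c subunit genes carried most of the transcript. Atp5g2 stood at 1196 FPKM in the control and 1027 in SML, and Atp5g3 at 769 and 570, with ratios of 0.851 (0.821 to 0.883) and 0.737 (0.705 to 0.771). Atp5g1 made 4.13% of the c subunit FPKM in the control and 1.16% in SML. These shares depend on length, since FPKM over counts per annotated kilobase was 6.98 for Atp5g1, 1.44 for Atp5g2 and 1.24 for Atp5g3. In counts per annotated kilobase Atp5g1 stood at 94.5 in the control and 20.8 in SML, a smaller share in both. Atp5g2 stood at 6454 and 5495 by that measure, and Atp5g3 at 4816 and 3551. The share of Atp5g2 was 58.3% and 63.5%, and that of Atp5g3 was 37.5% and 35.3%. The summed c subunit level was 2049 and 1616 FPKM, a ratio of 0.788.

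**Figure D2:**
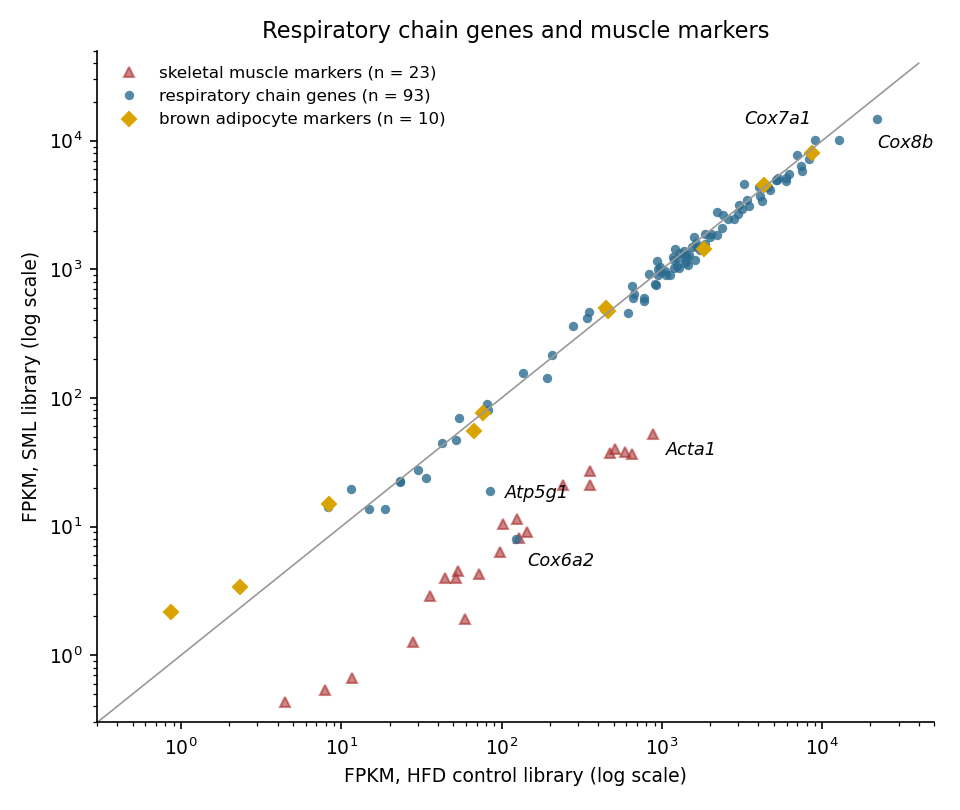
Level of each gene in the SML library against the control library, FPKM on log scales, for the 93 respiratory chain genes, 23 skeletal muscle markers and 10 brown adipocyte markers; the line marks equal levels. Cox6a2 lies among the muscle markers, Atp5g1 lies between them and the line, and Cox7a1 and Cox8b lie close to the line at the top.

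Other cell types also differed between the libraries, and their part in the respiratory chain values was not tested. Of 9 macrophage markers 6 were lower (summed 466 FPKM in the control and 282 in SML), and of 5 endothelial markers 2 were lower (374 and 231). All 4 of the 6 erythroid markers in the table were lower (1974 and 1012). Of 5 hepatocyte markers 4 were lower, with a sum of 19.6 and 0.45 FPKM and 3 of them listed at 0 in SML. Of the 10 brown adipocyte markers 2 were higher and 0 lower, with a sum of 15946 and 15040.

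Cox7a1 and Cox8b, the other muscle-type subunits that brown fat is known to express, did not follow Cox6a2. Cox7a1, a small membrane subunit of complex IV, stood at 9041 FPKM in the control and 10056 with SML, a ratio of 1.09 (1.07 to 1.11). Its partner Cox7a2 stood at 1718 and 1424, a ratio of 0.823 (0.800 to 0.846). With the trend on GC content and length removed the differences of Cox7a1 and Cox7a2 went from 0.15 and -0.27 to 0.34 and -0.12. The share of Cox7a1 in the pair was 84.0% in the control and 87.6% in SML. The ratio of Cox7a1 to Cox7a2 in the count columns was 1.32 times as high in SML (1.28 to 1.37). Cox7a1 corresponded to 180% of the muscle sum in the control and 2936% in SML.

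Cox8b, the muscle form of subunit 8, stood at 22044 FPKM in the control and 14824 with SML, a ratio of 0.659 (0.649 to 0.669). Its difference of -0.57 lay just inside the 1.5-fold limit, and in the count columns it was past it, 1.52-fold lower (1.49 to 1.54). With the trend on GC content and length removed the difference was -0.38, further inside the limit. Its partner Cox8a stood at 7438 and 5792, a ratio of 0.771 (0.757 to 0.784). The difference of Cox8a was -0.36 (-0.19 with that trend removed). Both genes of the pair were thus below 1, and their sum was 29482 and 20616 FPKM, a ratio of 0.699. The share of Cox8b was 74.8% in the control and 71.9% in SML, and the ratio of Cox8b to Cox8a was 0.855 times as high in SML (0.836 to 0.875). The 7A pair went the other way, with a sum of 10759 and 11480 FPKM and a ratio of 1.07.

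**Figure D3:**
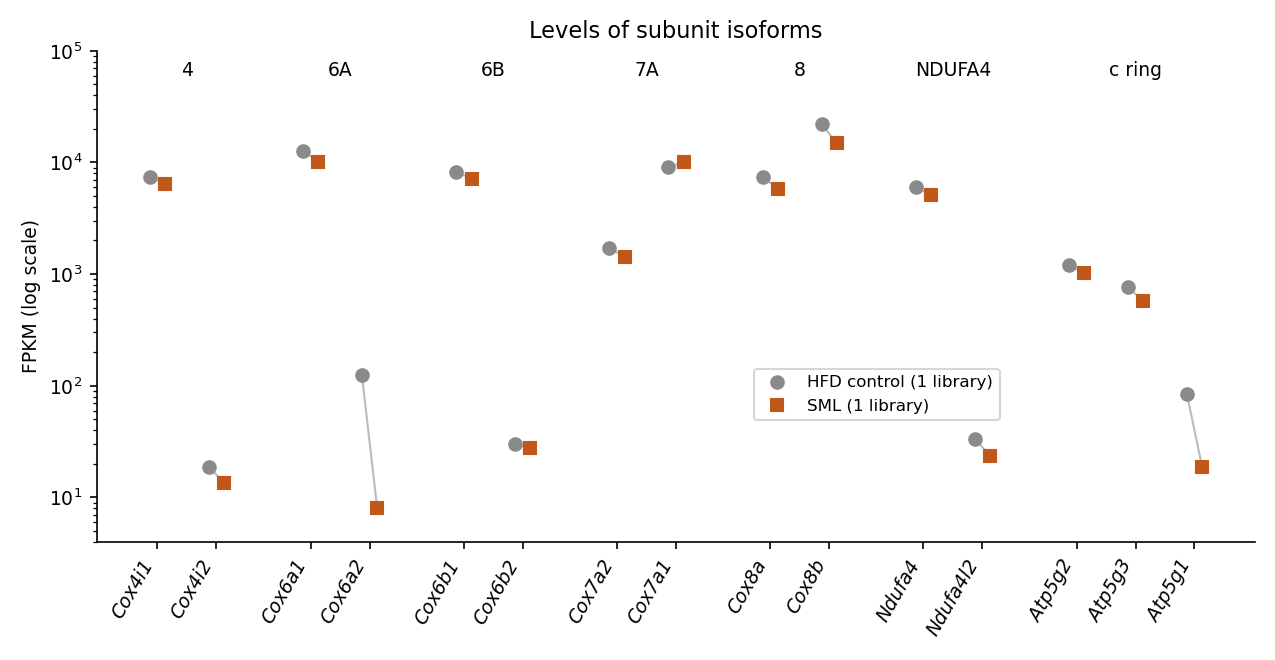
Level of each gene of the isoform pairs and of the 3 c subunit genes, FPKM on a log scale, in the control library (grey circles) and the SML library (orange squares), 1 library each. Cox7a1 and Cox8b lie above their partners, whereas Cox4i2, Cox6a2, Cox6b2 and Ndufa4l2 lie far below theirs, and Cox6a2 and Atp5g1 show the longest drops.

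The remaining tissue-restricted forms were rare in brown fat in both libraries. Cox4i2, the lung form of subunit 4, was 18.8 FPKM in the control and 13.6 in SML, 0.252% and 0.212% of a pair that was nearly all Cox4i1 (7425 and 6382). The ratio of Cox4i2 to Cox4i1 was 0.835 times as high in SML, with an interval (0.627 to 1.11) that includes 1, from 136 and 72 fragments of Cox4i2. Cox6b2, known as the testis form of subunit 6B, was 30.0 and 27.5 FPKM, 0.363% and 0.381% of its pair with Cox6b1 (8223 and 7177). The ratio of Cox6b2 to Cox6b1 was 1.02 times as high (0.788 to 1.32). Ndufa4l2, a homologue of Ndufa4 known to be induced in hypoxia, was 33.7 and 23.7 FPKM, 0.561% and 0.462% of the pair. Ndufa4, once assigned to complex I and now placed in complex IV, stood at 5972 and 5092. The ratio of Ndufa4l2 to Ndufa4 was 0.83 times as high (0.692 to 0.994), but the difference in share, -0.099 percentage points, was 0.027 with the trend on GC content and length removed.

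**Figure D4:**
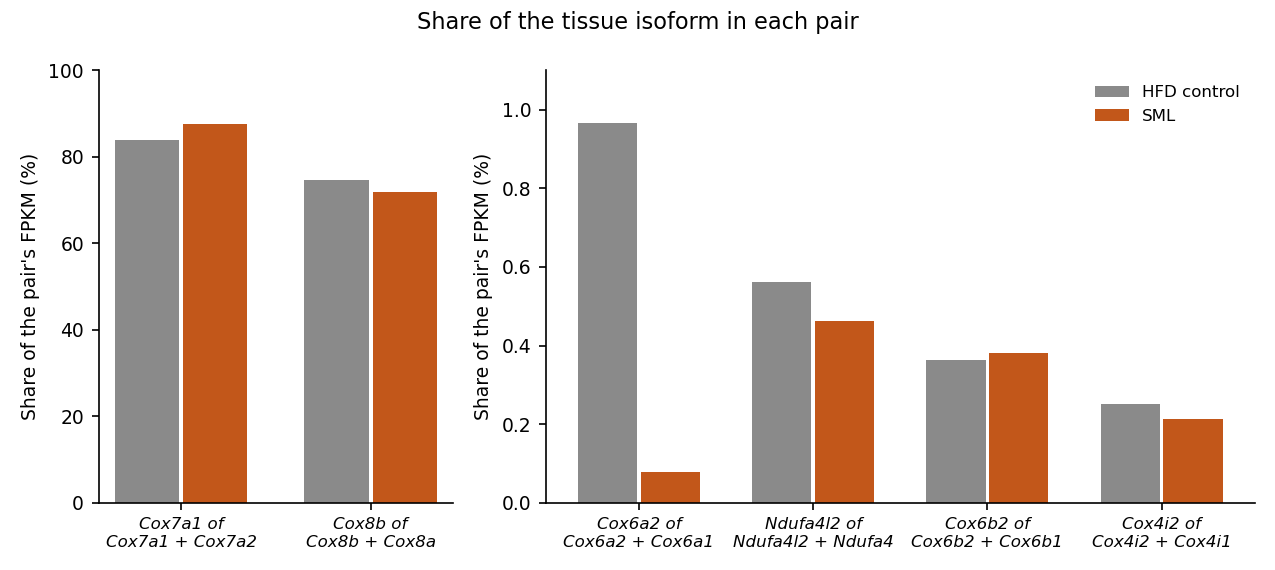
Share of the tissue-restricted gene in the summed FPKM of its pair, in percent, for the control and SML libraries; the left panel runs to 100% and the right panel has its own scale. Cox7a1 (84.0% and 87.6%) and Cox8b (74.8% and 71.9%) dominate their pairs, and Cox6a2 goes from 0.967% to 0.078%.

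The share depended on how length entered it. With count columns divided by the length of the annotated principal transcript, an alternative added after the values were seen, Cox7a1 made 74.2% of its pair in the control and 79.2% in SML, and Cox8b made 69.5% and 66.1% of its own. The order of the genes within each pair and the direction of both differences were the same as with FPKM.

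The other complex IV subunits did not move as a block. Cox6c, a small membrane subunit, had the highest difference of the complex at 0.50, with 3235 FPKM in the control and 4584 in SML and a ratio of 1.40 (1.37 to 1.43). Cox7c stood at 2214 and 2788, a ratio of 1.24 (1.2 to 1.28), but its difference of 0.33 was 0.02 once the trend on GC content and length was removed, while that of Cox6c was 0.49. Cox5a and Cox5b, which face the matrix, stood at 3411 and 3473 and at 5327 and 5153. Cox7b stood at 1299 and 1340. Over the 17 complex IV subunits the median difference was -0.22 (-0.12 with that trend removed), with 12 below 0. Of the 10 genes on chromosome 7, 5 were complex IV subunits, namely Cox6a2, Cox6b1, Cox6b2, Cox7a1 and Cox8b.

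The 36 complex I subunits had a median difference of -0.15, which was -0.03 with the trend on GC content and length removed. The 7 core subunits, which include the carriers of the flavin and the iron-sulfur clusters, had a median difference of -0.21 (-0.06 with the trend removed) with 5 below 0, and their median level was 1263 FPKM in the control and 1028 in SML. Ndufv2, which holds an iron-sulfur cluster of the NADH-oxidising arm, was the highest at 0.19 (651 and 744; 0.04 with the trend removed). Ndufs3 was the most abundant of the core subunits at 1482 and 1281. Ndufs1 had the lowest level among them, 206 and 214.

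The 29 supernumerary subunits, which surround the core, had a median of -0.14 (-0.02 with the trend removed) with 20 below 0. Ndufa12 was the lowest at -0.44 (1603 and 1178 FPKM, a ratio of 0.727 with an interval of 0.701 to 0.755). Ndufs4, mutated in Leigh syndrome and close to the electron input arm, was the highest at 0.38 (279 and 364, 1.30 with an interval of 1.25 to 1.35). Ndufb8 was the most abundant at 4230 and 3371. The supernumerary subunits went in both directions: Ndufa7 and Ndufa9 had differences of -0.42 and -0.37, and Ndufa6 and Ndufab1, the mitochondrial acyl carrier protein, had 0.26 and 0.33. All 36 complex I subunits lay within 1.5-fold.

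The 4 subunits of succinate dehydrogenase all lay below 0, with a median of -0.21 (-0.12 with the trend on GC content and length removed). Sdha, the flavoprotein, had -0.25 (909 FPKM in the control and 766 in SML), and Sdhd, a membrane anchor, had -0.01 (1195 and 1189). Sdhb, the iron-sulfur subunit, was the most abundant at 2808 and 2475. The 8 complex III subunits had a median of -0.08 (-0.03 with that trend removed) with 6 below 0. Uqcr11 was the lowest at -0.19 (4741 and 4144), and Uqcrb the highest at 0.12 (2410 and 2623), and with the trend removed they had -0.04 and -0.08. Uqcrq was the most abundant at 6196 and 5474. The Rieske iron-sulfur protein Uqcrfs1 stood at 1166 and 1254.

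The subunits of ATP synthase are given by their place in the enzyme. Atp5b and Atp5a1, the beta and alpha subunits that form the catalytic sites, had differences of -0.29 (5923 FPKM in the control and 4833 in SML) and -0.27 (2215 and 1840). The central stalk subunits Atp5c1, Atp5d and Atp5e had 0.09, -0.08 and -0.09. The peripheral stalk subunits Atp5f1, Atp5h and Atp5o had -0.06, -0.14 and -0.11, and Atp5f1 had -0.48 with the trend on GC content and length removed. With the same trend removed Atp5b and Atp5a1 had -0.19 and -0.16. Atp5k, a membrane subunit linked to dimers of the enzyme, was the most abundant by FPKM at 6960 and 7798, a difference of 0.16 (0.34 with the trend removed), and RefSeq names 4 pseudogenes of it, whose reads could be shared. In counts per annotated kilobase Atp5b stood above it, with 44364 in the control and 36120 in SML against 18193 and 19804 for Atp5k. Over the 15 subunits the median was -0.09 with 11 below 0.

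Atp5j, the coupling factor F6 of the peripheral stalk, had the highest difference of the complex at 0.40 (350 FPKM in the control and 462 with SML, a ratio of 1.36 with an interval of 1.28 to 1.44). Of its 4 main deposited transcripts, 3 had more FPKM in the SML library, from 105 to 173 FPKM, from 73.2 to 109 and from 34.2 to 62.1, while the most abundant in the control went from 136 to 116. The deposited locus spans 35908 bases, whereas the annotated gene at chr16:84827866-84835625 on the minus strand is shorter and overlaps Gabpa, on the opposite strand. Gabpa, which encodes a subunit of the ETS factor GABP, was 4.71 FPKM in the control and 8.62 with SML, in the same direction as Atp5j, with a ratio of 1.83 (1.57 to 2.13). In the count columns Gabpa held 191 and 350 and Atp5j 1485 and 2012, and whether reads were shared was not tested.

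Atp5s, coupling factor B, is a low transcript that was called higher, from 8.21 FPKM in the control to 14.1 with SML, a ratio of 1.71 (1.37 to 2.15), from 142 and 179 fragments. Cox7a2l, which helps to join complexes III and IV into supercomplexes, stood at 342 and 415, a ratio of 1.21 (1.16 to 1.26).

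The 8 complex I assembly factors with family names were far less abundant than the subunits, with a median level of 32.9 FPKM in the control and 33.7 in SML. Ndufaf4, which acts early in assembly, was called higher, from 11.45 to 19.71 FPKM, a ratio of 1.72 (1.53 to 1.93). With the trend on GC content and length removed the differences of Ndufaf4 and Atp5s went from 0.73 and 0.71 to 0.43 and 0.48, below the 1.5-fold limit. Ndufaf2 had 0.34 (54.6 and 69.6 FPKM). The other 6 lay between -0.14 (Ndufaf1, 51.6 and 46.7) and 0.07 (Atp5sl, 42.5 and 44.7), and Ndufaf3 was the most abundant at 81.7 and 81.3. Of the 3 complex III assembly factors, Uqcc2 had -0.41 (611 and 458), Uqcc1 0.15 and Uqcc3 0.20.

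Genes of the same pathway without the family names add 49 further members, which are assembly factors, cytochrome c with its partners, and small proteins of ATP synthase. Their median difference was 0.07 with 19 of 49 below 0, against a median of -0.14 with 58 of 80 below 0 for the subunits of complexes I to V. With the trend on GC content and length removed the medians were 0.10 and -0.06. By the size rule 4 were higher and 1 was lower, against 5.44% and 5.76% of all genes kept, so the share called was close to the background of 11.2% in either direction. No set test was made, and the difference between these lists was not tested.

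The list of complex IV assembly factors, 25 of the 49 genes, held 3 of the 4 higher ones. Of these 25 genes 3 were called higher and 0 lower, beside 5.44% and 5.76% of all genes kept, and 3 genes do not describe the list. Cox17, the copper chaperone of the intermembrane space, went from 1033 FPKM in the control to 1680 with SML, a ratio of 1.60 (1.53 to 1.68). Coa6, which acts in copper delivery to subunit II, went from 38.4 to 65.8, a ratio of 1.70 (1.46 to 1.99). Cmc1, a factor that binds newly made subunit I, went from 30.8 to 53.8, a ratio of 1.74 (1.53 to 1.99). All 3 were still called higher with the trend on GC content and length removed. The other 22 complex IV assembly factors lay within 1.5-fold, the lowest being Coa4 at -0.47, and the median of the 25 was 0.06.

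The 4 assembly factors of succinate dehydrogenase all lay above 0, with Sdhaf1 at 0.38, Sdhaf2 at 0.40, Sdhaf3 at 0.43 and Sdhaf4 at 0.11, none past the size rule, beside a subunit median of -0.21. Their median of 0.39 was 0.18 once the trend on GC content and length was removed. The 9 genes without family names that were grouped here under complex I assembly ran from -0.20 (Nubpl) to 0.34 (Tmem70), with a median of 0.09. Hccs, the lyase that attaches heme to cytochrome c, went from 11.4 to 20.2 FPKM, a ratio of 1.77 (1.53 to 2.05). Cycs, somatic cytochrome c, stood at 645 and 724, and Cyc1, cytochrome c1 of complex III, at 2814 and 2333. With the same trend removed, Hccs had 0.47 and was no longer called. Atpif1, the inhibitor of ATP hydrolysis by ATP synthase, was the lower one, from 19.0 to 11.8 FPKM, or 1.62-fold (1.33 to 1.98), and had -0.49 with the trend removed.

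**Figure D5:**
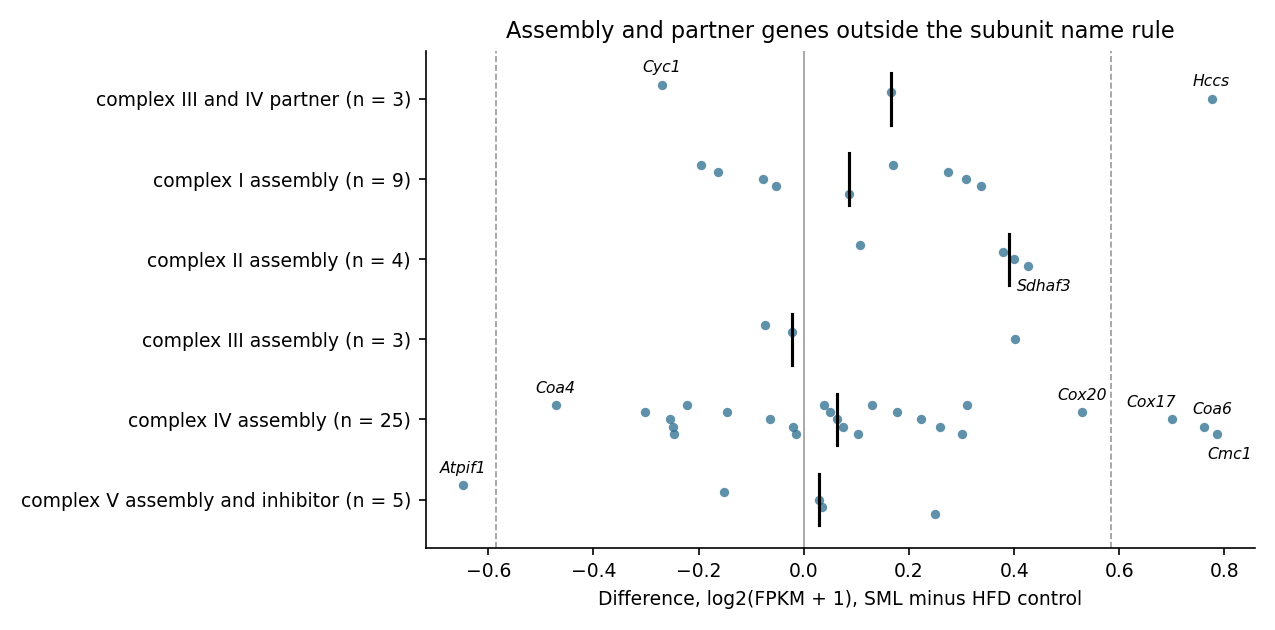
Difference between the SML and control libraries, log2(FPKM + 1), for the 49 assembly and partner genes without the family names, grouped by complex; each point is 1 gene, black bars are medians and dashed lines mark 1.5-fold. Hccs, Cox17, Coa6 and Cmc1 lie beyond the right dashed line and Atpif1 beyond the left one.

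Of the 93 genes 16 had more than 1 deposited transcript, and in some their shares differed between the libraries. In Cox4i1 the main transcript went from 5308 FPKM in the control to 5020 in SML and the second from 2117 to 1362 (1.57-fold lower), so the share of the first was 71.5% and 78.7%. In Ndufv3, a complex I subunit known for a long and a short form, the long transcript made 11.6% and 14.0% of the gene's FPKM. In Cox6b2 the main transcript went from 26.4 to 16.2 FPKM and the second from 2.09 to 9.30, on 130 and 9 fragments in the control. In Ndufs5 the second transcript went from 347 to 230 (1.52-fold lower) while the first stood at 1087 and 1024. Such shares are estimates by the authors' software from overlapping transcripts, and no error of that step is given in the table.

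Position limits what some of these values can carry. Of 92 genes matched to the annotation, 27 overlap another protein-coding gene and 25 of them one on the opposite strand. Besides Cox6a2 and Atp5j, other deposited loci were longer than the annotated gene. Atp5d and Ndufs7 share 1 deposited locus of 672333 bases, against 7187 and 7674 annotated. Cox4i2 (77556 against 10865), Ndufb11 (35580 against 2294) and Ndufa4l2 (7506 against 2188) were among the others. What this does to their values was not tested. RefSeq names at least 1 pseudogene for 9 of the 93 genes, Cox7c, Cox5b, Uqcrh and Atp5l among them, with which reads could be shared. Cox8b lies at chr7:140898945-140900446 on the minus strand, Atp5g1 at chr11:96068852-96075670 on the minus strand and Ndufaf4 at chr4:24898083-24905001 on the plus strand (mm10, GENCODE M21).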

How the data were processed

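Poly(A) RNA of brown adipose tissue was sequenced in 2 libraries, 1 for HFD control and 1 for SML. The authors deposited 1 table of 14189 assembled transcripts with an FPKM and a count column per library. CASAVA 1.8, Cufflinks and build mm10 are named in the submitters' processing notes; for the aligner, the annotation and any filter, the sources used here give nothing. Both count columns in the deposited table are a scaled signal, not raw counts: low values of genes with 1 transcript moved in steps of 0.637 (HFD control, 90.6% of 513 values whole within 0.1) and 0.866 (SML, 90.5% of 725). Dividing by the step gave the fragments behind each interval. No count model was run, since 1 library per group leaves no residual spread. Transcripts were summed per symbol, 1 was added before log2, and genes whose mean FPKM reached 1 were kept. No sample column was left unused.

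The 93 genes, the lists and the 1.5-fold rule were chosen with earlier results of these data known. Full values are given for the isoform pairs, the c subunit genes, genes past the size rule, and the ends and the most abundant gene of each list. A gene that this rule would name is not reported here. Other genes named with values, and the transcripts, were chosen after their values were seen. Ratios of isoform ratios have a 95% Woolf interval on the fragments. Genome positions are from GENCODE M21 (GRCm38, the sequence of mm10). Alternatives covered the pseudocount, the filter, the columns, the transcript summing, the scaling, the size limit and a GC and length trend (both known for 96.3% of genes). The procedure was tested on simulated data. Python 3.11.15, pandas 2.3.3, numpy 2.4.6, scipy 1.17.1 and matplotlib 3.10.9 were used.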

Additional observations from a re-analysis of the deposited data

How the results depend on the processing

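No paired analysis was possible because each group had 1 library, and for the same reason no library could be left out. Genes called higher numbered 2, and 0 with the GC and length trend removed, 0 at a 2-fold limit and 9 at a 1.2-fold limit. With the highest transcript per symbol they numbered 3. Genes called lower numbered 2, and 3 in the count columns, 3 with the highest transcript per symbol and 22 at a 1.2-fold limit. The median difference ran from -0.11 to -0.05 over the alternatives. The difference in isoform share (SML minus HFD control, percentage points) was -2.97 for Atp5g1, and -3.69 in the count columns and -2.42 with the highest transcript per symbol. For Cox6a2 it was -0.889, and -1.20 in the count columns and -1.01 per annotated kilobase. For Cox7a1 it was 3.57, and 6.27 in the count columns and 5.02 per annotated kilobase. For Cox8b it was -2.87, and -3.80 and -3.41 under the same settings. For Cox6b2 it was 0.018, and -0.094 with the highest transcript per symbol. That setting keeps the Cox6b2 transcript that went from 26.4 to 16.2 FPKM and leaves out the one that went from 2.09 to 9.30. For Ndufa4l2 it was -0.099, and -0.235 in the count columns and 0.027 once the GC and length trend was removed. Of the 22 single genes recomputed under each alternative (isoform pairs, c subunits, called genes and list ends among them), Cox6b2 alone turned direction, under the GC and length trend. Genes outside those 22 also turned under that trend, among them Uqcrb, Sdhd, Atp5d, Cox5a, Cox5b, Cox7b, Atp5l, Ndufs7 and Cycs. The size of the ratios was less stable. With that trend removed 14 of the 22 ratios left their counting interval. The number was 12 with totals equal outside the 50 highest genes, 7 with the highest transcript per symbol and 2 with a pseudocount of 0.1. All of these settings used FPKM, whereas the reported ratios use the count columns, so the numbers also hold that switch. The 2 under the pseudocount were Cox7a1 (1.09 and 1.11) and Cox8b (0.659 and 0.672). Both are abundant and moved through the switch of columns, not through the pseudocount. The per-kilobase alternative, added after the values were seen, was not run for Atp5g1. Its counts per annotated kilobase give a smaller share and a smaller difference in share than the settings listed for it. Relative counting error was widest for Cox6a2, Cox4i2, Cox6b2, Atp5s and Atp5g1, and the spread between animals is unknown.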
